A study of Xenopus tropicalis with 11 samples.

Results

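In early gastrula embryos of the frog Xenopus tropicalis, 1215 intervals bound by the head organizer factor Otx2 also carried a Gsc peak and a TLE peak but no peak of p300 or Lim1. They were chosen by measured overlap, from the authors' peak lists: each is an Otx2 interval on a chromosome that shares at least 1 bp with a Gsc interval and with a TLE interval and none with a p300 or a Lim1 (Lhx1) interval. They made up 0.729% of the 166593 Otx2 intervals on the 10 chromosomes. The lists hold no expression measurement, so whether any of these sites is repressed was not measured.

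Otx2 and Gsc (goosecoid) are homeodomain transcription factors of the Spemann-Mangold organizer, the dorsal signalling centre that patterns the head and trunk. Otx2 mostly activates head genes, Gsc represses transcription, and Lim1 is a further organizer activator. TLE, the vertebrate Groucho, has no DNA-binding domain of its own and is recruited by such factors as a corepressor, whereas p300 is a coactivator that acetylates histones, H3K27 among its targets. H3K4me1 is found at enhancers whether active or poised, and H3K27ac at active enhancers and promoters.

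The embryos were of the Nigerian A strain, with no treatment named in the labels, and were taken whole at stage 10.5, with 2000 to 3000 fixed embryos per chromatin sample and sequencing on an Illumina GAIIx. There were 7 immunoprecipitated libraries (Otx2, Lim1, Gsc, TLE, p300, H3K4me1 and H3K27ac) and 4 inputs. Otx2 and Lim1 shared an input, as did TLE and p300 and the 2 marks, and Gsc had its own. With 1 library per antibody there is no replicate error: the tests compare 1 list with another, peaks do not stand in for replicate embryos, and the intervals given reflect counting alone. The depth of sequencing cannot be read from peak lists, so the lack of a peak means only that none was called. Since embryos were whole, overlapping peaks of different antibodies may stem from different cells.

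Of the 166593 Otx2 intervals, 11329 (6.80%) met a Gsc interval, and 9738 of those also met TLE. Lim1 was absent from 4983 of these 9738. Within that set, 3768 met a p300 interval and 1215 (24.4%) did not. Over all 166593 Otx2 intervals, 84811 met a p300 interval and 82091 met a TLE interval. A further 100 intervals with Gsc and TLE and without p300 were left out because they met Lim1, and 91 more that satisfied the rule lay on unplaced scaffolds. These counts describe the selection and carry no test.

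3 other classes of Otx2 intervals, all without Lim1, served for comparison. The first holds the 3768 intervals with Gsc, TLE and p300. The second holds 22286 intervals with TLE but neither Gsc nor p300, and the third 191 intervals with Gsc but neither TLE nor p300. Another 52442 Otx2 intervals met none of the 4 other factors.

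Most of the Otx2, Gsc and TLE sites without p300 lay outside both histone marks. Of the 1215 sites, 1021 met neither mark, which is 84.0% (exact 95% interval 81.9 to 86.0%), against a background of 68.9% of all Otx2 intervals. H3K4me1 peaks were met by 168 sites, or 13.8% (11.9 to 15.9%), beside 27% of all Otx2 intervals. H3K27ac peaks were met by 61 sites, or 5.02% (3.86 to 6.40%), beside 15.9% of all Otx2 intervals. The 2 marks coincided at 35 sites (2.88%; background 11.8%), H3K4me1 stood alone at 133 (10.9%; background 15.2%) and H3K27ac alone at 26 (2.14%; background 4.11%). The background includes Otx2 intervals that met p300. Of the 52442 Otx2 intervals that met none of the 4 other factors, 88.5% met neither mark, 8.42% met H3K4me1 and 5.76% met H3K27ac. The low H3K27ac share was therefore not particular to the 1215 sites, and their H3K4me1 share was above that of these intervals. The 52442 intervals were narrower, with a median width of 91 bp against 191 bp, and were not compared within strata of width.

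Sites with Gsc and TLE carried both marks less often when p300 was not called. With p300, 531 of 3768 sites met H3K27ac, which is 14.1% (13.0 to 15.2%), and 1308 met H3K4me1, which is 34.7% (33.2 to 36.3%). The intervals of these shares did not overlap those of the sites without p300. The H3K27ac share of the sites with p300 was near, and slightly below, the 15.9% of all Otx2 intervals. Their H3K4me1 share was above the 27% of all Otx2 intervals. The sites with p300 were also wider, so the odds were compared within 10 strata of Otx2 width. The Mantel-Haenszel odds ratio for sites without p300 against sites with p300 was 0.370 for H3K27ac (95% interval 0.274 to 0.50; two-sided, Benjamini-Hochberg adjusted p = 8.22e-11, n = 1215 and n = 3768). For H3K4me1 it was 0.333 (0.275 to 0.402; adjusted p = 1.96e-31, n = 1215 and n = 3768). Both ratios lay under 1 in every alternative run, from 0.133 to 0.516 for H3K27ac and from 0.166 to 0.461 for H3K4me1, and the lowest of each came with mark peaks limited to a −log10 q of at least 5. The highest H3K27ac ratio came with 50% of the Otx2 interval covered by the mark. The highest H3K4me1 ratio came with p300 peaks limited to a −log10 q of at least 5, where the H3K27ac ratio was 0.444. The H3K27ac ratio was 0.209 with no p300 or Lim1 interval within 2000 bp and 0.240 within strata of TLE fold, and the H3K4me1 ratio was 0.216 with Otx2, Gsc and TLE peaks limited to a −log10 q of at least 5.

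Without p300, TLE sites with Gsc and TLE sites without it met the marks at similar shares. Of the 22286 Otx2 and TLE sites without Gsc, 1110 met H3K27ac, or 4.98% (4.70 to 5.27%), and 3313 met H3K4me1, or 14.9% (14.4 to 15.3%). Within strata of width, the odds ratio for sites with Gsc against sites without was 0.849 for H3K27ac (0.651 to 1.11; adjusted p = 0.22, n = 1215 and n = 22286). For H3K4me1 it was 0.855 (0.722 to 1.01; adjusted p = 0.105, n = 1215 and n = 22286). Neither difference passed the threshold of 0.05, and the intervals allow a ratio as low as 0.651 for H3K27ac and 0.722 for H3K4me1. The direction depended on what was held equal: within strata of Otx2 fold the ratios were 1.37 for H3K27ac (adjusted p = 0.0369, n = 1215 and n = 22286) and 1.2 for H3K4me1 (adjusted p = 0.0441, n = 1215 and n = 22286). For H3K4me1 the ratio passed the threshold below 1 under 4 other settings, at 0.857 with p300 peaks limited to a −log10 q of at least 5, 0.842 with unplaced scaffolds included, 0.771 with 50% of the Otx2 interval covered and 0.800 within strata of TLE fold. The H3K27ac ratio was 0.557 (0.315 to 0.982) with no p300 or Lim1 interval within 2000 bp, which did not pass the threshold after adjustment. No direction is therefore given for Gsc among TLE sites.

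Sites with Gsc and no coregulator met H3K27ac more often than sites with Gsc and TLE. Of the 191 such sites, 35 met H3K27ac, or 18.3% (13.1 to 24.6%), against 5.02% of the sites with TLE. The share of the 191 sites was near the 15.9% of all Otx2 intervals. A Lim1 interval lay within 500 bp of 20.4% of them, against 7.24% of the sites with TLE and 23.2% of all Otx2 intervals. The H3K27ac odds ratio for sites with TLE against the 191 sites was 0.277 (0.168 to 0.457; adjusted p = 1.44e-07, n = 1215 and n = 191). For H3K4me1 the shares were close, 33 of 191 or 17.3% (12.2 to 23.4%) against 13.8%, and the odds ratio of 0.690 did not pass the threshold (0.444 to 1.07; adjusted p = 0.117, n = 1215 and n = 191). The 191 sites had weaker Otx2 peaks, with a median fold of 3.43, and within strata of Otx2 fold the H3K27ac ratio was 0.492 (adjusted p = 0.00717, n = 1215 and n = 191) and the H3K4me1 ratio 1.18. With unplaced scaffolds included the H3K4me1 ratio was 0.441 and passed the threshold, as it did without chromosome 2, at 0.584.

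**Figure D1:**
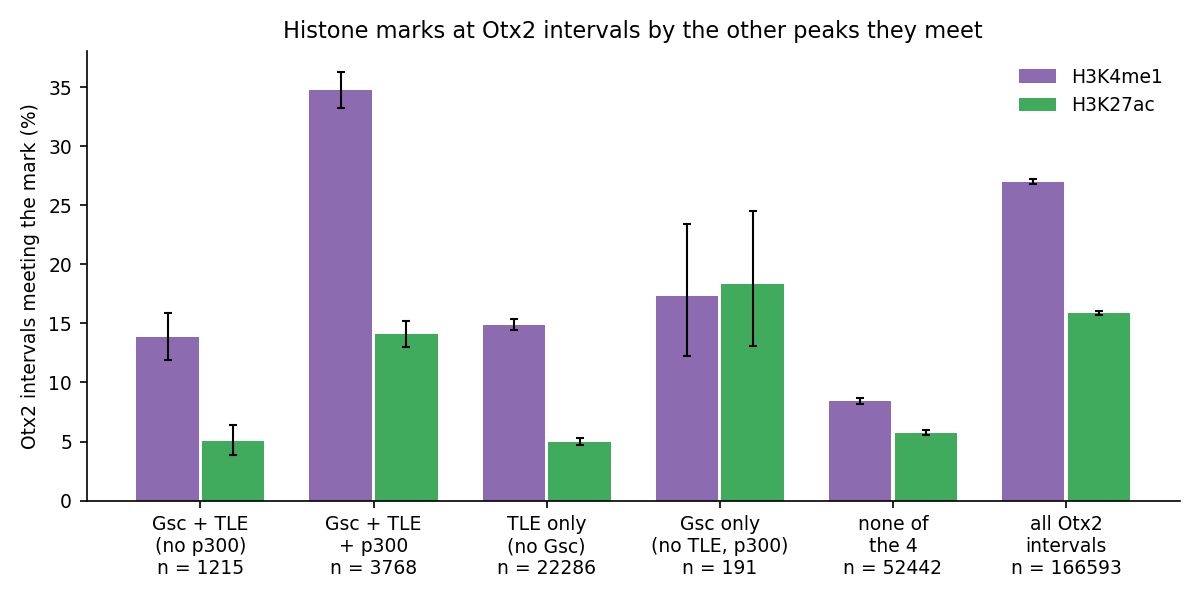
Bars give the percentage of Otx2 intervals that met an H3K4me1 or an H3K27ac peak by at least 1 bp, for 4 classes without Lim1, the intervals that met none of the 4 other factors and all Otx2 intervals on chromosomes; error bars are exact 95% binomial intervals. The sites with Gsc and TLE but no p300 stood at 13.8% and 5.02%, below the sites with p300 at 34.7% and 14.1% and near the TLE sites without Gsc at 14.9% and 4.98%.

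The Otx2 intervals with Gsc and TLE but without p300 were wider than most Otx2 intervals, and their Otx2 and TLE peaks were stronger than most of their lists. Their median width was 191 bp (95% interval of the median 185 to 198 bp), with quartiles of 135 and 273 bp and a range from 66 to 829 bp. The median over all Otx2 intervals was 141 bp. Sites with p300 had a median width of 301 bp, TLE sites without Gsc 130 bp and Gsc sites without a coregulator 111 bp. A wider interval has more room to meet any other peak, and the classes were themselves defined by such meetings, so widths are given as a description.

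Fold enrichment, the authors' ratio of peak signal to local background, is likewise given here as a description, with each value set against its own list. The median Otx2 fold of the 1215 sites was 4.93, with a range from 2.07 to 12.6, and stood at percentile 80.8 of the Otx2 list. The median TLE fold was 10.4, with a range from 1.96 to 30.8, at percentile 79.2 of the TLE list. The median Gsc fold was 4.94, with a range from 3.01 to 20.7, and stood near the middle of the Gsc list at percentile 52.7. Over all Otx2 intervals that met Gsc, the median Gsc fold was higher, at 5.17 (percentile 59.4). Over all that met TLE, the median TLE fold was 7.77 (percentile 65.4), so part of the high TLE percentile was shared. At 563 sites (46.3%) every Gsc peak met was below the median fold of its list, which was 4.88, whereas for TLE that held at 216 sites (17.8%).

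Beside the sites with p300, the sites without it had lower Otx2 and TLE values and nearly the same Gsc value. The median folds with p300 were 5.90 for Otx2, 13.5 for TLE and 4.95 for Gsc. TLE sites without Gsc had weaker peaks, with medians of 3.62 for Otx2 and 6.16 for TLE. Across the 1215 sites Spearman's rho between the Otx2 and TLE folds was 0.532, while rho was 0.203 for Otx2 and Gsc and 0.187 for Gsc and TLE. The sites with p300 gave rho values of 0.586, 0.261 and 0.151 for the same pairs. These are correlations across sites of 1 library each, all of which share the sites' chromatin and sequence composition, and carry no test.

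**Figure D2:**
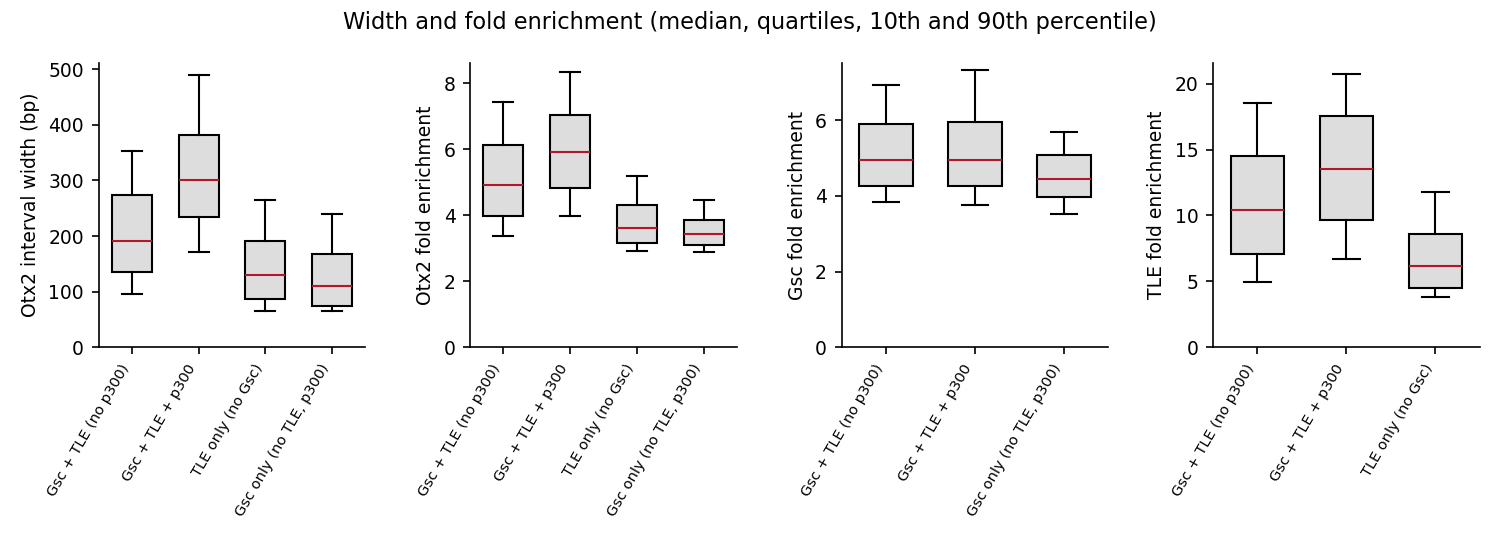
Boxes show Otx2 interval width in bp and the authors' Otx2, Gsc and TLE fold enrichments by class, with the median as a line, the quartiles as the box and the 10th and 90th percentiles as whiskers. The sites with Gsc and TLE but no p300 lay between the sites with p300 (medians 301 bp and 5.90) and the TLE sites without Gsc (130 bp and 3.62) in width and Otx2 fold.

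The positions of the Gsc and TLE summits are bounded by the required overlap with short intervals, so they are given as a description, and no distance expected from overlap alone was computed. The strongest Gsc summit was at a median of 32 bp from the middle of the Otx2 interval and the strongest TLE summit at 26 bp. The distance between the Gsc and the TLE summit had a median of 20 bp (18 to 21 bp) and reached at most 401 bp. It was 50 bp or less at 967 sites (79.6%) and 100 bp or less at 92.3%. At sites with p300, whose intervals were wider, the median distance was 25 bp and 68.6% lay within 50 bp.

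The overlaps that chose the sites were rarely marginal. A Gsc summit lay inside the Otx2 interval at 1181 sites (97.2%) and a TLE summit at 1198 (98.6%). The Otx2 interval enclosed a whole Gsc interval at 894 sites (73.6%), and at 662 sites (54.5%) it was itself enclosed by a TLE interval. Most sites met a single interval of each, 1192 for Gsc and 1193 for TLE, though 292 of the TLE intervals (24.0%) had more than 1 summit.

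**Figure D3:**
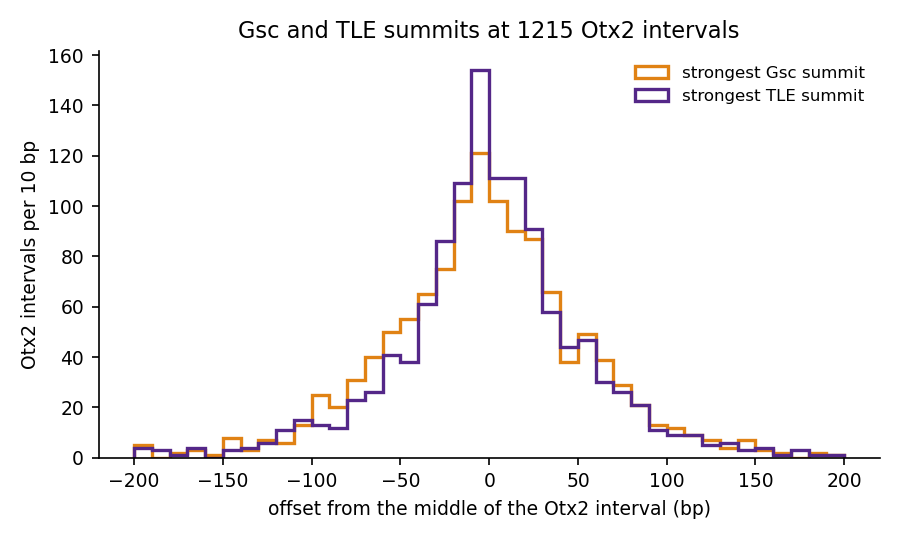
Lines give the number of the 1215 Otx2 intervals, per 10 bp, whose strongest Gsc or TLE summit lay at the given offset in bp from the middle of the interval; 2 Gsc and 9 TLE summits lay over 200 bp away and are not drawn. Both distributions centre near 0, with median distances of 32 bp for Gsc and 26 bp for TLE.

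A p300 summit lay within a few kilobases of most of these sites, as it did for Otx2 intervals that met none of the 4 other factors. The distance from the middle of the Otx2 interval to the nearest p300 summit had a median of 2579 bp (2330 to 2863 bp). The quartiles were 1169 and 5732 bp and the range ran from 84 to 54540 bp. A p300 summit lay within 500 bp of 106 sites (8.72%), within 1 kb of 250 (20.6%), within 5 kb of 871 (71.7%) and within 10 kb of 1037 (85.3%). Over all Otx2 intervals, which include those that met p300, these shares were 56.0%, 61.4%, 82.0% and 92.1%. Since the sites were selected on having no overlapping p300 interval, these distances are a description. They can be set beside classes with the same exclusion: the median was 2898.5 bp (2838 to 2956 bp) for TLE sites without Gsc and 3159 bp (2288 to 4431 bp) for Gsc sites without a coregulator.

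The nearest p300 intervals had folds near the median of their list. Their median fold was 4.98, beside 4.68 over the p300 list and 4.75 for those nearest to TLE sites without Gsc. Of them, 775 (63.8%) met an Otx2 interval of their own, against 59.9% of all p300 intervals and 57.3% for TLE sites without Gsc. Few sites lay close to the overlap limit. At 13 sites a p300 interval lay within 50 bp without touching, and 2 of these met H3K27ac and 3 met H3K4me1. Conversely, 35 Otx2 intervals with Gsc and TLE were excluded for a p300 overlap of 50 bp or less, of which 5 met H3K27ac and 10 met H3K4me1. For Lim1 the numbers were 2 sites within 50 bp and 29 excluded for such an overlap. The peak threshold moved the membership more: there were 1962 sites with p300 limited to a −log10 q of at least 5, and 241 with Otx2, Gsc and TLE so limited.

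H3K27ac peaks lay farther off than p300, in a list of 73687 peaks beside 151050 p300 intervals on the chromosomes. The median distance to the nearest H3K27ac peak was 4135 bp (3656 to 4737 bp), and the upper quartile was 12326.5 bp. This distance runs between interval edges, and the nearest p300 interval lay at a median of 2392 bp (2121 to 2672 bp) by the same measure. A peak lay within 1 kb of 252 sites (20.7%), within 5 kb of 668 (55%) and within 10 kb of 859 (70.7%). Over all Otx2 intervals these shares were 32.3%, 56.3% and 73.1%, so at 5 and 10 kb the sites were near the background. Sites with p300 were closer, at a median of 2414.5 bp (2185 to 2713 bp) with 38.3% within 1 kb, and TLE sites without Gsc were farther, at 5264.5 bp (5127 to 5398 bp) with 20.6% within 1 kb. The intervals of these medians did not overlap. The TLE sites without Gsc also had narrower and weaker Otx2 peaks, whose part in the difference was not tested. Over all Otx2 intervals, which include those that met p300, the median was 3701 bp (3652 to 3750 bp). At Gsc sites without a coregulator it was 2678 bp (1918 to 4039 bp). Both of these intervals overlapped that of the sites with Gsc and TLE but no p300. With H3K27ac peaks limited to a −log10 q of at least 5, the median distance from the latter sites was 54397 bp. It was 7124 bp for those with no p300 or Lim1 interval within 2000 bp.

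At 747 sites (61.5%) the nearest p300 interval was closer than the nearest H3K27ac peak, and at 467 (38.4%) the order was the other way. Both were within 1 kb at 127 sites (10.5%), and neither was within 10 kb at 96 (7.90%). These counts were not made for other Otx2 intervals, so they have no background. Of the nearest H3K27ac peaks, 372 (30.6%) themselves met a p300 interval, against 35.1% of all H3K27ac peaks. H3K4me1 was closer than H3K27ac, in a longer list of 91211 peaks, with a median distance of 2867 bp (2517 to 3171 bp). Over all Otx2 intervals, which include those that met p300, the median was lower, at 2088 bp (2046 to 2124 bp). It was 826 bp at sites with p300 and 3677.5 bp at TLE sites without Gsc. At Gsc sites without a coregulator it was 2332 bp (1410 to 4049 bp).

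**Figure D4:**
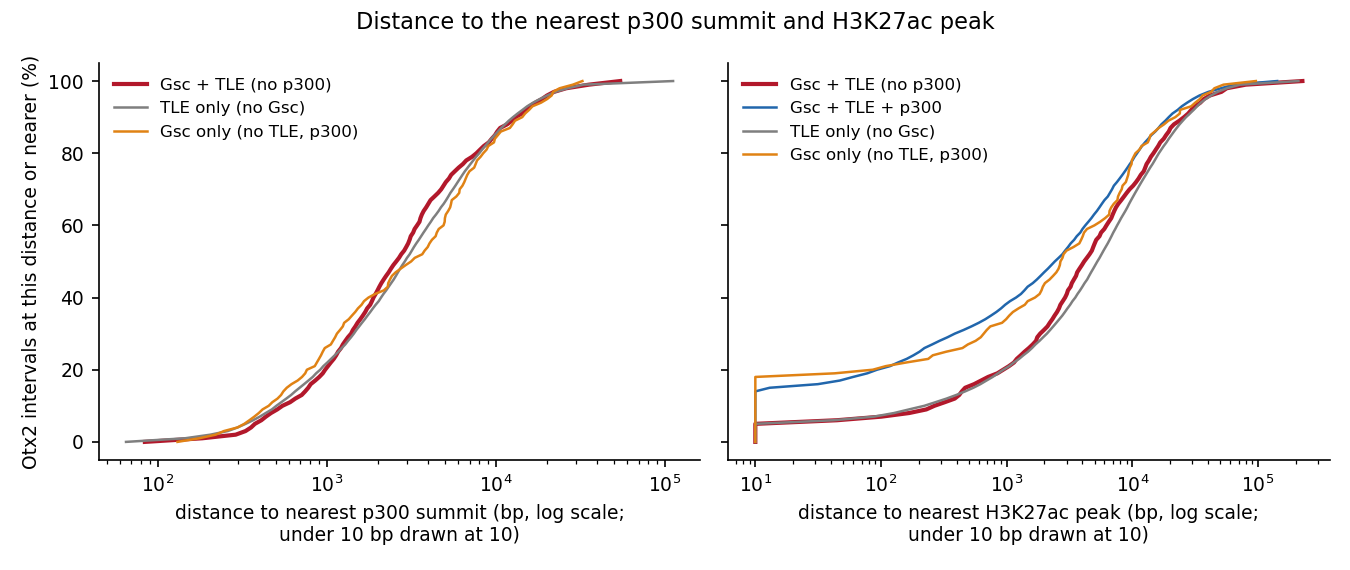
Curves give the cumulative percentage of Otx2 intervals (vertical axis) with a p300 summit (left) or an H3K27ac peak (right) at the distance in bp on the log-scaled horizontal axis or nearer, by class, with the sites that met p300 drawn on the right alone. The sites with Gsc and TLE but no p300 had median distances of 2579 bp to a p300 summit and 4135 bp to an H3K27ac peak.

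Marks were met more often at sites with p300 close by. The bins used here were drawn after values had been seen and are a description. Among the 153 sites with a p300 interval at 500 bp or nearer, 24 met H3K27ac, or 15.7% (10.3 to 22.4%), and 48 met H3K4me1, or 31.4%. From 500 to 2000 bp the shares were 5.76% of 399 sites and 14.3%. Between 2 and 10 kb they were 1.83% (0.840 to 3.44%) and 10.8% of 492 sites, and beyond 10 kb 2.92% and 5.85% of 171 sites. TLE sites without Gsc gave 13.6%, 4.78%, 3.22% and 2.53% for H3K27ac over the same bins, so the decline with distance was shared by sites without Gsc.

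The 35 sites with both marks stood apart from the 1021 with neither in the same respect. Their median distance to a p300 summit was 485 bp (393 to 1073 bp), against 2822 bp (2584 to 3064 bp), and to a Lim1 interval 1024 bp against 4744 bp. Their median Otx2 fold was 3.92 against 5.01 and their median TLE fold 7.11 against 10.5. Their Otx2 intervals had a median width of 150 bp (136 to 204 bp) against 189 bp (182 to 195 bp). Their median Gsc fold was 5.60 (4.88 to 5.89) against 4.92 (4.86 to 5.01). For width and Gsc fold the intervals of the medians overlapped. The 133 sites with H3K4me1 alone had a median p300 distance of 1766 bp, between those 2 groups. Their median width of 218 bp (197 to 238 bp) was above both, with an interval that overlapped that of the 35 sites. Their TLE fold of 11.3 (10.4 to 12.6) and Lim1 distance of 5098 bp (3642 to 6418 bp) were also above both medians. The intervals of these 2 values overlapped those of the 1021 sites. The 26 sites with H3K27ac alone had a median p300 distance of 1417 bp (774 to 3887 bp) and a TLE fold of 6.93 (4.69 to 12.5). Their intervals overlapped those of the 35 and of the 1021 sites.

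The mark peaks that were met resembled the rest of their lists in strength. The 61 H3K27ac peaks had a median width of 345 bp and a median fold of 2.55, against 276 bp and 2.69 over the list. They covered the middle of the Otx2 interval at 37 sites and the whole interval at 19. The 169 H3K4me1 peaks had a median width of 407 bp and a fold of 2.78, against 363 bp and 2.83, and covered the middle at 109 of the 168 sites. With at least 50% of the Otx2 interval covered, the shares were 3.05% for H3K27ac and 8.81% for H3K4me1. Within 250 bp on each side of the midpoint the H3K27ac share was 7.65%. With mark peaks at a −log10 q of at least 5 the shares were 0.576% and 1.73%.

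H3K27ac was met less often at the sites with stronger Otx2 and TLE peaks, a pattern examined after values had been seen and not tested. With the sites divided by Otx2 fold into 4 groups of nearly equal size, 9.54% of the lowest group met H3K27ac (6.48 to 13.4%), followed by 4.62%, 2.96% and 2.96% (1.36 to 5.55%) in the higher groups. In 4 such groups by TLE fold the shares were 10.2% (7.03 to 14.2%), 5.03%, 1.62% and 3.29% (1.59 to 5.97%). Gsc fold showed no such order, with 4.97%, 4.26%, 5.63% and 5.23%. In the same ranges of Otx2 fold the sites with p300 went from 23.6% to 12.1% and TLE sites without Gsc from 5.65% to 2.77%, so the order along Otx2 fold was not limited to the 1215 sites. Along TLE fold the sites with p300 went from 26.0% to 10.5%, whereas TLE sites without Gsc had 5.70%, 3.65%, 3.69% and 5.44% from the lowest to the highest range. For H3K4me1 the share went from 20.7% in the lowest to 9.21% in the highest group by Otx2 fold, and from 14.5% to 13.2% by TLE fold.

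**Figure D5:**
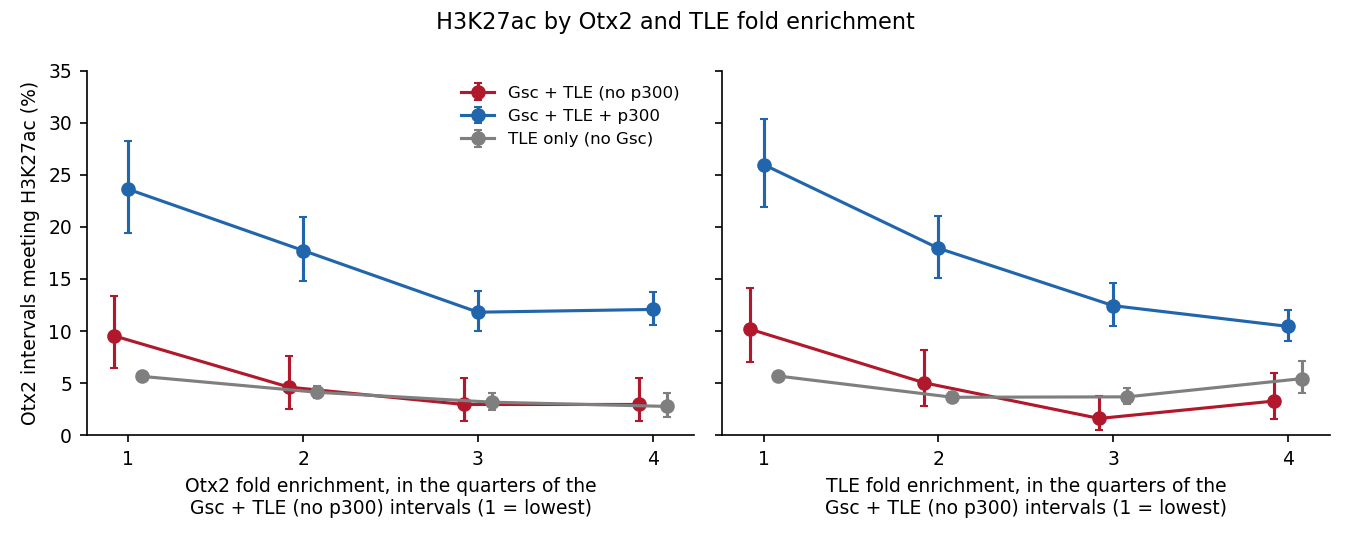
Points give the percentage of Otx2 intervals that met H3K27ac in 4 ranges of Otx2 fold (left) and TLE fold (right), each range holding nearly the same number of the sites with Gsc and TLE but no p300; bars are exact 95% binomial intervals. In these sites the share went from 9.54% to 2.96% along Otx2 fold and from 10.2% to 3.29% along TLE fold, and the sites with p300 were higher in the end ranges, at 23.6% and 12.1% along Otx2 fold.

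The H3K27ac share of the 1215 sites was not higher in wide than in narrow Otx2 intervals. Among Otx2 intervals of 267 bp or more, the widest of 5 groups, 13 of 325 sites with Gsc and TLE but no p300 met H3K27ac, or 4.0% (2.15 to 6.74%), beside 5.39% (2.49 to 9.98%) of 167 sites of 77 to 114 bp, with intervals that overlap. In the widest group the share was 16.3% (14.9 to 17.9%) with p300 and 8.60% (7.46 to 9.85%) at TLE sites without Gsc. At 77 to 114 bp the TLE sites without Gsc stood at 3.86% (3.36 to 4.40%), inside the interval of the sites with Gsc. A change of order between the narrow group and the widest is therefore not shown, and the ratio over all widths pools both. These groups were singled out after their values were seen, and the differences within them were not tested.

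The strongest sites were named by the lowest of their 3 fold percentiles for Otx2, Gsc and TLE, so that a site had to be strong in every list. Of the 10 highest by that measure 0 met H3K27ac and 1 met H3K4me1, beside 5.02% and 13.8% of the 1215 sites, so these counts are near the shares of all the sites. Their nearest p300 summit lay at 685 bp to 17.3 kb, with a median of 3979 bp. Coordinates are those of the lists, counted from 1, on a build that the sources used here do not name, so no gene, exon or sequence is assigned.

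The site ranked highest, at chr4:108833329-108833452, is 124 bp wide, with folds of 11.3 for Otx2, 20.7 for Gsc and 21.1 for TLE. Its Gsc fold was the maximum among the 1215 sites. A p300 summit lay 1406 bp away and an H3K27ac peak 944 bp away, and an H3K4me1 peak lay 82 bp away. The next, at chr3:57491492-57491699, is 208 bp wide, with folds of 10.3, 12.6 and 28.0 for Otx2, Gsc and TLE. It lay 17.3 kb from a p300 summit but 574 bp from an H3K27ac peak.

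The site at chr8:2461276-2461615 is 340 bp wide, with folds of 8.85, 12.5 and 20.7 in the same order, and was 2368 bp from p300 and 2980 bp from H3K27ac. At chr1:25446061-25446323, 263 bp wide, the folds were 8.11, 11.9 and 25.7, and the nearest H3K27ac peak was 31652 bp away. The 335 bp site at chr4:34761236-34761570 had folds of 8.72, 11.2 and 24.2 and lay 9997 bp from a p300 summit. These 3 sites had no mark peak within 2 kb.

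The maximum TLE fold among the 1215 sites, 30.8, was at chr7:116799882-116800071, where the folds of Otx2 and Gsc were 9.32 and 11.2. This site lay 112 bp from an H3K27ac peak and 6135 bp from a p300 summit. At chr1:143321106-143321240 the folds were 8.32, 13.7 and 19.2, and at chr1:123152489-123152706 they were 8.91, 10.04 and 24.3. Distances to a p300 summit were 2008 and 2756 bp there.

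The site at chr2:22845765-22845918 had folds of 9.16, 9.64 and 21.9 and lay 5202 bp from p300. The last of the 10, at chr2:11298244-11298442, had folds of 6.79, 9.52 and 16.4 and was the 1 that met H3K4me1. A p300 summit lay 685 bp from it and an H3K27ac peak 596 bp, so that among the 10 it was the closest to p300.

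3 more sites were named for their extremes. The widest, at chr1:165553057-165553885, spans 829 bp, with folds of 5.55, 11.8 and 22.2, and met H3K4me1 but lay 29777 bp from an H3K27ac peak. The site farthest from p300, at chr2:103487181-103487763, is 583 bp wide and 54540 bp from the nearest summit, yet met H3K27ac. Its Gsc fold of 3.42 was low in the list. The site farthest from H3K27ac, at chr8:28304582-28304950, lay 225554 bp from the nearest peak and 23403 bp from a p300 summit, with a TLE fold of 16.8.

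The 1215 sites were spread over all 10 chromosomes, at 0.955 per Mb of the covered 1272.5 Mb. The density ran from 0.559 per Mb on chromosome 9, with 45 sites, to 1.15 per Mb on chromosome 8, with 135. The share of sites meeting H3K27ac ran from 1.68% on chromosome 5 to 10.3% on chromosome 10, where it rests on 3 of 29 sites, and that meeting H3K4me1 from 10.2% on chromosome 6 to 16.9% on chromosome 3. Among intervals with Gsc and TLE and without Lim1, the share lacking p300 ran from 16.5% on chromosome 9 to 28.2% on chromosome 3. Neighbouring sites were a median of 629128 bp apart, and 37 of the 1205 gaps were under 10 kb. Of the sites, 130 (10.7%) lay within 10 kb of an Otx2 interval with Gsc, TLE and p300, against 6.85% of TLE sites without Gsc and 5.76% of Gsc sites without a coregulator. This share was not computed over all Otx2 intervals, so it has no background. The sites also had wider and stronger Otx2 peaks than both of these classes, and the difference was not tested.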

How the data were processed

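Of 11 ChIP-seq samples, the 7 peak lists were analysed. The submitters' processing notes name MACS2 and deepTools without versions or roles, whereas aligner, build and filtering of reads are not given in the sources used. Each line deposited by the authors gives a fold enrichment (a ratio), a −log10 p, a −log10 q and a score. Gsc, TLE and p300 have narrow-peak files and the rest broad-peak files, so widths and fold levels were not compared between layouts; folds served to describe, rank and stratify peaks, and their ranks were correlated across sites. Lines repeated per summit were reduced to 1 interval with its summit of highest fold. Distances to p300 summits use every summit and start at the middle of the Otx2 interval. Distances to p300 intervals, Lim1 intervals and mark peaks run between interval edges. The gene table (UCB_Xtro_10.0) reaches over 1 Mb past the last peak on 10 of 10 chromosomes and was not used. Overlap means at least 1 shared bp. Shares have exact 95% (Clopper-Pearson) intervals and medians have order-statistic intervals. Odds ratios are Mantel-Haenszel within 10 strata of Otx2 width, with Benjamini-Hochberg adjustment over 6 ratios. Python 3.11.15, numpy 2.4.6, pandas 2.3.3, scipy 1.17.1 and matplotlib 3.10.9 were used, and the procedures were tested on simulated data. Named sites are the 10 with the highest lowest-of-3 fold percentile, the widest, and the farthest from p300 and from H3K27ac. Sites, classes and rules were chosen with earlier results of these data known. Alternatives changed peak thresholds, overlap, exclusion distances, strata and chromosomes.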

Additional observations from a re-analysis of the deposited data

How the results depend on the processing

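No paired analysis was possible because only 1 library was made per antibody. Of 143 alternative values of the 6 odds ratios, 127 kept direction and side of the threshold, among them all 25 against sites with p300 for each mark and all 23 for H3K27ac against Gsc sites without a coregulator. For each ratio, 10 of the alternatives only left out 1 chromosome and so kept most of the sites. Ratios that kept their direction and passed the threshold in neither run are counted as kept. Leaving out each chromosome gave 1016 to 1186 sites, with 4.66 to 5.38% meeting H3K27ac; without chromosome 2 the H3K4me1 odds ratio against Gsc sites without a coregulator passed the threshold at 0.584, and over the 10 chromosomes it ran from 0.584 to 0.783. With Otx2, Gsc and TLE at a −log10 q of at least 5 there were 241 sites, of median width 214 bp, 2.90% with H3K27ac, 9.54% with H3K4me1 and 3610 bp from H3K27ac. With no Lim1 or p300 interval within 500 bp, 3.54% met H3K27ac and 11.3% H3K4me1, and the distances to p300 and H3K4me1 were 3113.5 and 3181 bp. With none within 2000 bp there were 575 sites of 200 bp, 2.26% with H3K27ac and 9.74% with H3K4me1, at 5413 bp from p300, 7124 bp from H3K27ac and 5287 bp from H3K4me1. With p300 at a −log10 q of at least 5 there were 1962 sites of 217 bp, 6.52% with H3K27ac and 19.3% with H3K4me1, at 3800, 3627 and 2317.5 bp from p300, H3K27ac and H3K4me1; the H3K4me1 odds ratios against TLE sites without Gsc and Gsc sites without a coregulator passed the threshold at 0.857 and 0.544. They also passed with scaffolds included, at 0.842 and 0.441. With 50% of the Otx2 interval covered, 3.05% met H3K27ac and 8.81% H3K4me1, and the H3K4me1 ratio against TLE sites without Gsc passed at 0.771. A window of 250 bp on each side gave 7.65% and 17.7%. Marks at a −log10 q of at least 5 gave 0.576% and 1.73%, distances of 54397 bp to H3K27ac and 24254 bp to H3K4me1, and ratios against TLE sites without Gsc of 1.41 for H3K27ac and 1.03 for H3K4me1. Against the same class, the H3K27ac ratio was 1.01 without strata. Strata of Otx2 fold gave 1.37 and 1.2 against that class and 1.18 for H3K4me1 against Gsc sites without a coregulator, and strata of width and fold 1.15 and 1.10. Strata of TLE and of Gsc fold were added after the data were examined; with TLE fold the ratios against TLE sites without Gsc were 1.16 for H3K27ac and 0.800, past the threshold, for H3K4me1. From midpoints, the distance to H3K4me1 was 3289 bp. The causes were not tested. Against Gsc sites without a coregulator, neither ratio could be fitted with Otx2, Gsc and TLE at a −log10 q of at least 5, nor the H3K4me1 ratio with marks at that limit. Depth is unknown, so a missing peak may be a weak one.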
